A study of Mus musculus with 60 samples.

Results

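The genes described here encode the machinery that copies DNA in S phase of the cell cycle, together with a few regulators of S phase entry. The list holds 44 genes, fixed by name: the origin recognition complex, the licensing factors, the MCM2-7 helicase and its activators, the DNA polymerases, the sliding clamp and its loader, the single-strand binding protein, enzymes of deoxynucleotide supply and of lagging-strand maturation, histone-linked factors, and E2f1 and Cdc25a. A probe set annotated to that gene alone was found for 43 of them, and the one with the highest mean over all arrays stood for the gene. Chaf1a had none and was not analysed here. Tyms, thymidylate synthase, stayed below the intensity filter, with log2 values from 2.70 to 3.68 over the 60 arrays, and was not tested. The other 42 were tested among 14513 genes of 18194 with a probe set.

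The cells were primary hepatocytes of male C57BL/6N mice aged 8 to 12 weeks, each preparation coming from 1 animal or a pool of up to 3. They were plated on collagen I and kept without serum for 24 h, and dexamethasone, a glucocorticoid, was in the media of all groups at 100 nM. Cells then received recombinant human interleukin 6 (IL-6) at 40 ng/ml together with recombinant mouse hepatocyte growth factor (HGF) at 40 ng/ml, IL-6 alone, HGF alone, or neither. RNA of each arm was hybridised to 2 arrays per hour, with early harvests at 0.5, 2 and 4 h and late ones at 8, 16, 24 and 32 h, and unstimulated cells of 0 h to 4 arrays. The series text names biological triplicates, but the labels do not say which arrays came from separate animals, so p-values measure the spread between arrays. The hepatocytes are bulk samples of cultured cells, in which a larger number of cells in S phase and more transcript per cell cannot be told apart.

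Replication begins when the origin recognition complex, Cdc6 and Cdt1 load the MCM2-7 ring onto DNA in G1 phase. In S phase Cdc45 and the GINS complex turn the ring into a moving helicase, DNA polymerase alpha lays primers, and polymerases delta and epsilon extend them on the clamp PCNA. Many of the genes are classical targets of the E2F transcription factors. Adult hepatocytes are mostly quiescent in the liver and can re-enter the cell cycle after tissue loss, a setting in which HGF acts as a growth factor and IL-6 as a priming cytokine.

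The promoters of 3 helicase genes are shown because Mcm5 and Mcm6 fell over culture time whereas Mcm7 rose. Each window runs from 250 bases before to 50 bases after an annotated RefSeq start (GRCm38.p6), and capitals mark the octamers TTTCCCGC, TTTGGCGC, TTTGCCGC or TTTCGCGC, which resemble E2F sites, on either strand.
Mcm5, chr8:75109259-75109558, plus strand: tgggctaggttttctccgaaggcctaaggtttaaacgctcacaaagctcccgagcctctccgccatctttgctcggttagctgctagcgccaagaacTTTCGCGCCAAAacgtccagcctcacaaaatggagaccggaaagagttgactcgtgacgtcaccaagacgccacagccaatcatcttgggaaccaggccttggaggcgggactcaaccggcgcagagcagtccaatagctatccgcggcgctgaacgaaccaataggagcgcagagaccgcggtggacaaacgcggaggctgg
Mcm6, chr1:128359656-128359955, minus strand: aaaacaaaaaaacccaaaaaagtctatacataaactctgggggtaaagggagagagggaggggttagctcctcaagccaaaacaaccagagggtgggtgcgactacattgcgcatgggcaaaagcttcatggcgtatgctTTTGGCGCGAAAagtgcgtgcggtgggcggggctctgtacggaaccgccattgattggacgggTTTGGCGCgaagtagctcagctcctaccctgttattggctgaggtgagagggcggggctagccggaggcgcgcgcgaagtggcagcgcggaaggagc
Mcm7, chr5:138171834-138172133, minus strand: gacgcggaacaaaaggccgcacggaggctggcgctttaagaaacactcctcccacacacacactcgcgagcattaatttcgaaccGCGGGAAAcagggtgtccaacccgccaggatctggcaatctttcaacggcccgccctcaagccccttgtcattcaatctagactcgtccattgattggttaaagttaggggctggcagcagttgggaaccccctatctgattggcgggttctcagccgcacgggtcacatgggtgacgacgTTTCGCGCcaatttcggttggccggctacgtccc
The Mcm5 window holds 2 such octamers, which overlap, the Mcm6 window 3, of which 2 overlap, and the Mcm7 window 2. Mcm7 has another annotated start whose window holds none. Of the 37 genes of the list with a window in the table, 14 (37.8%) held at least 1 octamer, against 4.22% of 11639 tested genes and 2.26% of all 32851 windows. The box CCAAT, searched on both strands, stood in 25 of the 37 (67.6%), against 42.3% of the tested genes. These are matches of letters in the reference sequence and no binding was measured.

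Array medians lay between 4.88 and 4.97 on the log2 scale. A spiked labelling control (the dap transcript, 3' minus 5' signal) read 1.18 to 1.52 on the 10 arrays of unstimulated cells up to 4 h, and 2.46 to 3.11 on 49 others, so that contrasts with unstimulated cells are given from 8 h on. Over 8 to 32 h the hybridisation control bioB read 5.38 to 5.93 with IL-6 plus HGF, 5.51 to 7.05 with IL-6, 5.94 to 6.98 with HGF and 8.13 to 8.40 in unstimulated cells. Each comparison with unstimulated cells therefore crosses a bioB difference. The control also stepped within arms. With IL-6 it read 7.05 on both arrays of 8 h and 5.51 to 6.03 at 16 to 32 h. With HGF it read 5.94 to 6.32 at 8 to 24 h, and 6.98 and 6.94 at 32 h. Changes over time with IL-6 and with HGF, and comparisons between stimuli at some hours, therefore cross bioB differences too. The part of bioB in the results was not tested. The array IL-6 24 h replicate 1 stood apart from both labelling classes (dap 3.99, and an actin 3' minus 5' signal of 0.94 against 0.59 on replicate 2). The 2 HGF arrays of 32 h differed in the genes of the list: 36 of 42 read higher on replicate 1, by a median of 0.26, while the median over all genes tested differed by 0.01. In the other groups of 2 arrays the median size of this difference over the list was 0.04 to 0.14. The labelling controls of the 2 HGF arrays were alike, with actin signals of 0.74 and 0.76. Results that rest on HGF at 32 h or IL-6 at 24 h are given with and without replicate 1 of that group, below called the doubted array. For HGF these controls do not tell which of the 2 arrays departs. Leaving out replicate 2 instead moves each HGF difference at 32 h the other way, for Rrm2 against unstimulated cells from 0.73 to 1.11.

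The mean level of the list was highest at 16 h in each arm (level with 8 h in unstimulated cells) and, of the late hours, lowest at 32 h. The mean log2 intensity over the 42 genes was 7.92, 7.96, 7.99 and 8.12 in unstimulated cells at 0, 0.5, 2 and 4 h, and 8.22, 8.22, 8.00 and 7.72 at 8, 16, 24 and 32 h. At 8, 16, 24 and 32 h it was 8.13, 8.25, 8.22 and 7.87 with IL-6 plus HGF, 8.13, 8.16, 8.11 and 7.81 with IL-6, and 8.23, 8.30, 8.18 and 7.91 with HGF. At 0.5, 2 and 4 h it was 8.01, 7.84 and 7.88 with IL-6 plus HGF, 7.94, 8.03 and 8.07 with IL-6, and 8.00, 8.03 and 8.03 with HGF. The means at 8 h lay below unstimulated cells with IL-6 plus HGF and with IL-6, and at 24 and 32 h all 3 stimulated means lay above. The 8 stimulated and unstimulated arrays of 24 h do not overlap in this mean: the 6 stimulated ones ran from 8.11 to 8.25 and the 2 unstimulated ones read 8.01 and 7.99. The mean is a description of chosen genes and carries no p.

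**Figure D1:**
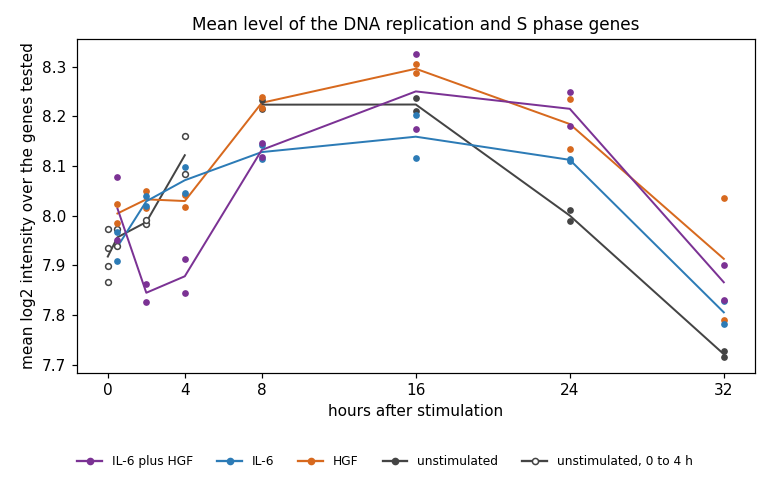
Mean log2 intensity over the 42 genes (vertical axis) on each array against hours after stimulation (horizontal axis). Points are arrays, lines join group means, and open points are unstimulated arrays of the other labelling class. The unstimulated mean lay at 8.22 at 8 h and 7.72 at 32 h, and the HGF arrays of 32 h read 8.04 and 7.79.

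The hour of the highest level differed between arms. Over 8 to 32 h, 16 of 42 genes had their highest group mean at 24 h with IL-6 plus HGF, 12 with IL-6, 9 with HGF and 1 in unstimulated cells. Unstimulated cells had 19 of their highest means at 8 h and 18 at 16 h. The lowest mean came at 32 h for 25 genes with IL-6 plus HGF, 30 with IL-6, 30 with HGF and 35 in unstimulated cells. These counts describe the order of group means and were not tested. They were not made for all genes tested, so whether they are particular to the list is not known. 

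The early hours are given as differences within an arm, without a test. With HGF the bioB control read 8.47 and 8.36 at 0.5 h, and 6.31 and 6.21 at 4 h. The part of this step in the HGF differences was not tested. Between 0.5 and 4 h, 31 of 42 genes were lower and 11 higher with IL-6 plus HGF (median -0.17), 10 lower and 32 higher with IL-6 (0.16), and 22 lower and 20 higher with HGF (-0.01). In unstimulated cells 6 were lower and 36 higher at 4 h than at 0 h (0.18). With IL-6 plus HGF these differences ran from -0.61 for Gmnn to 0.50 for Slbp. For Rrm2, the small subunit of ribonucleotide reductase, the difference of 4 h from 0.5 h was 0.80 with IL-6 and 0.73 with HGF, and that of 4 h from 0 h was 1.16 in unstimulated cells. These were the highest values of the 42 genes in these 3 arms. How many of all genes tested moved each way in the early hours was not counted. The mean over all genes tested was 7.32 at 0.5 h and 7.28 at 4 h with IL-6 plus HGF. It was 7.30 at both hours with IL-6, and 7.31 and 7.30 with HGF. In unstimulated cells it was 7.31 at 0 h and 7.32 at 4 h.

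Time in culture changed most of these genes, in both directions. In unstimulated cells 29 of 42 fell and 5 rose over 16 to 32 h relative to 8 h, while 8 did not pass (limma moderated F-test, Benjamini-Hochberg adjusted over 14513 genes, threshold 0.05), on a background of 65.7% of all genes called, 36.1% higher and 29.5% lower. At 32 h alone the median difference from 8 h was -0.49 for the list and -0.04 for all genes tested. With IL-6 plus HGF 20 fell and 13 rose (background 68.1%, 38.6% higher and 29.5% lower), with IL-6 22 fell and 9 rose (65.2%, 36.3% and 28.9%), and with HGF 21 fell and 12 rose (63.4%, 35.0% and 28.4%). Under quantile normalization the split with IL-6 plus HGF became 25 lower and 7 higher.

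The direction depended on the hour. Each background is again the share of all genes higher and lower at that hour. At 16 h, 13 genes were higher and 0 lower than at 8 h with IL-6 plus HGF (24.1% and 12.2%), 2 and 1 with IL-6 (12.7% and 7.54%), 10 and 2 with HGF (18.2% and 13.5%), and 4 and 5 in unstimulated cells (11.5% and 7.96%). At an unadjusted p under 0.05 from limma, 0 were lower with IL-6 plus HGF at that hour. At 24 h, 17 were higher and 7 lower with IL-6 plus HGF (29.5% and 22.2%), 8 and 9 with IL-6 (27.0% and 19.3%), 9 and 9 with HGF (25.6% and 20.8%), and 4 and 21 in unstimulated cells (24.1% and 19.4%). At 32 h, 7 were higher and 22 lower with IL-6 plus HGF (32.8% and 28.5%), 2 and 23 with IL-6 (30.6% and 25.7%), 3 and 21 with HGF (30.5% and 25.5%), and 3 and 30 in unstimulated cells (31.9% and 28.0%). Lower calls thus outnumbered higher ones at 32 h in each arm, and at 24 h in unstimulated cells and, by 1, with IL-6. Without the doubted array 21 of the 24 HGF calls at 32 h were kept, and 14 of the 17 IL-6 calls at 24 h.

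The 3' minus 5' signal of actin, a measure of RNA length, also moved with time: it read 0.39 to 0.49 at 8 h, 0.48 to 0.63 at 16 h, 0.54 to 0.72 at 24 h (without IL-6 replicate 1) and 0.71 to 0.96 at 32 h. Its part in the decline was not tested. The hepatocyte marker genes moved the same way, with 7 of 7 lower over time in unstimulated cells, and the mean log2 level over these markers fell within 9.78 to 11.97 with IL-6 plus HGF, 10.26 to 12.11 with IL-6, 10.13 to 12.05 with HGF and 10.54 to 12.24 in unstimulated cells over 8 to 32 h.

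Pcna, the clamp that tethers polymerases to DNA, showed the decline plainly. In unstimulated cells it read 10.42 and 10.51 at 32 h, against 11.80 and 11.83 at 8 h, a difference of -1.35 (SE 0.06, limma adjusted p = 5.43e-24). The corresponding 32 h readings were 10.57 and 10.54 with IL-6 plus HGF, 10.53 and 10.56 with IL-6, and 10.83 and 10.59 with HGF, and every array of 32 h lay below every array of 8 h. Mcm4 fell by 1.56 in unstimulated cells (SE 0.09), Mcm6 fell by 1.34 (SE 0.07) and Cdt1 fell by 1.15 (SE 0.07). Pole2, the second subunit of polymerase epsilon, fell by 1.08 (SE 0.13), and Lig1, the ligase that seals Okazaki fragments, fell by 1.05 (SE 0.08).

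**Figure D2:**
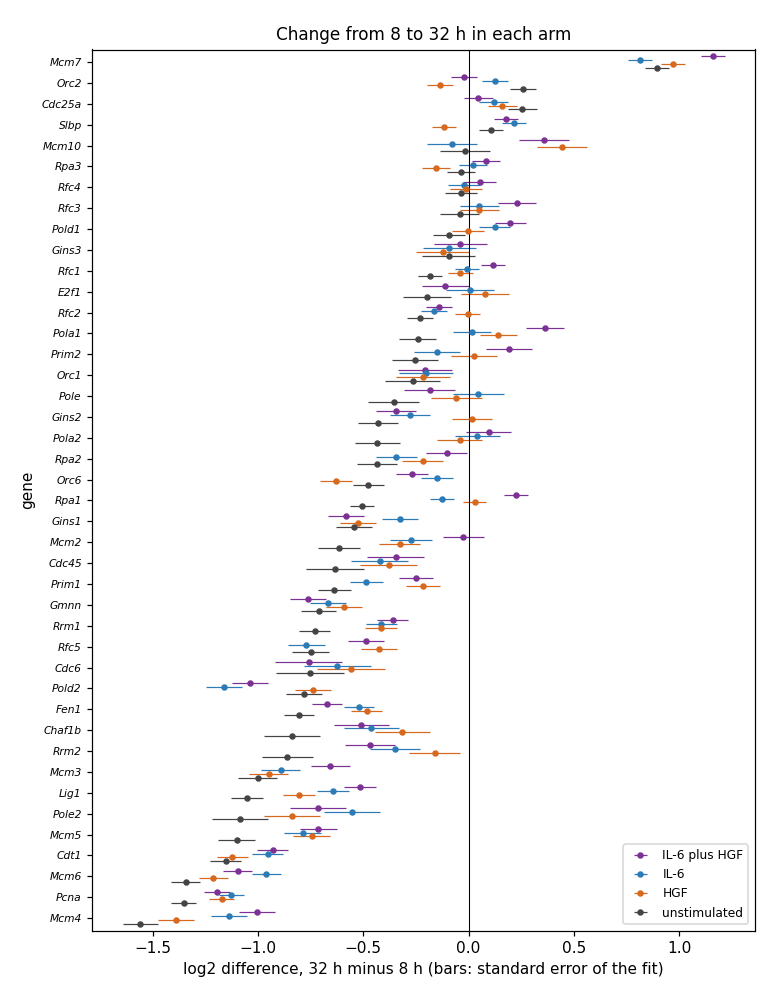
Log2 difference of 32 h minus 8 h (horizontal axis) for each of the 42 genes (vertical axis), ordered by unstimulated cells; points are fitted differences for the 4 arms and bars the standard error of the fit. Mcm7 stands alone at 0.82 to 1.16 in all arms, while Mcm4 lies at the other end with -1.56 in unstimulated cells.

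Mcm7 moved against the other helicase subunits. In unstimulated cells it read 11.56 and 11.57 at 32 h, against 10.63 and 10.71 at 8 h, a rise of 0.90 (SE 0.06, limma adjusted p = 3.02e-19). The rise over the same hours was 1.16 with IL-6 plus HGF (SE 0.06), 0.82 with IL-6 (SE 0.06) and 0.97 with HGF (SE 0.06). All 4 probe sets of Mcm7 gave it in unstimulated cells, with differences of 0.90, 0.85, 0.92 and 0.82. Orc2 and Cdc25a also rose over time in unstimulated cells, by 0.26 (SE 0.06) and 0.25 (SE 0.07). Rfc4 and Rpa3 passed with their largest difference at 16 h, 0.51 (SE 0.08) and 0.30 (SE 0.07) above 8 h.

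Part of the list was higher with each stimulus than in unstimulated cells, and most such calls came at 24 and 32 h. Over 8 to 32 h, 20 genes were higher and 11 lower with IL-6 plus HGF, 15 higher and 10 lower with IL-6, and 25 higher and 6 lower with HGF, the direction being taken at the hour of the largest difference. Among all genes tested, 57.2% were called with IL-6 plus HGF (28.5% higher, 28.7% lower), 42.0% with IL-6 (18.7% higher, 23.3% lower) and 55.1% with HGF (27.2% higher, 27.9% lower). The 3 comparisons share the unstimulated arrays, so their calls are not independent of each other. With IL-6 the share of the list called came near the 42.0% of all genes when 1 array was left out, as follows. The 42.0% is from all arrays. Without IL-6 24 h replicate 1 the IL-6 count was 18 of 42, against 25 with it, and Orc2, Cdt1, Mcm2, Gins2, Pold1, Pole2 and Cdc25a were the 7 no longer called. Without HGF 32 h replicate 1 the HGF comparison had 21 higher and 7 lower; Mcm10, Gins1, Gins2 and Pola2 were no longer called, and Gmnn was. For genes whose array values are not given, these 2 arrays are the only ones left out.

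The single hours show the order. The background is given as the share of all genes higher and lower at that hour. At 8 h, 3 genes were higher and 11 lower with IL-6 plus HGF (background 13.7% and 19.7%), 0 higher and 8 lower with IL-6 (6.75% and 10.9%), and 7 higher and 5 lower with HGF (14.1% and 15.3%). At 16 h, 9 were higher and 7 lower with IL-6 plus HGF (22.3% and 18.8%), 0 and 7 with IL-6 (11.7% and 13.9%), and 13 and 4 with HGF (20.0% and 18.5%). Fewer were lower at 16 h with IL-6 without IL-6 16 h replicate 1. The same held with IL-6 plus HGF and with HGF without unstimulated 16 h replicate 1. By 24 h, 20 were higher and 0 lower with IL-6 plus HGF (18.3% and 17.4%), 10 and 2 with IL-6 (12.6% and 12.2%), and 21 and 2 with HGF (16.4% and 17.5%). With IL-6 the share higher at 24 h came near the 12.6% of all genes without IL-6 replicate 1, as given below. At 32 h, 16 were higher and 1 lower with IL-6 plus HGF (15.3% and 18.2%), 8 and 3 with IL-6 (9.49% and 14.8%), and 18 and 0 with HGF (10.1% and 15.2%). The HGF count at 32 h depends on which array is kept: far fewer genes were higher without replicate 1, and more without replicate 2. The mean over the list was 8.04 on replicate 1 and 7.79 on replicate 2, against 7.71 and 7.73 in unstimulated cells. Without IL-6 replicate 1 the IL-6 count at 24 h was 6 higher, and without replicate 2 of IL-6 plus HGF the count of that group at 24 h was 13. At 32 h the count with IL-6 plus HGF was 10 without unstimulated replicate 1 or its own replicate 1, that with HGF was 11 without unstimulated replicate 2, and that with IL-6 was 3 without IL-6 replicate 2 and 5 without either unstimulated array. At 8 h the genes lower with IL-6 were 3 without IL-6 replicate 2 and 5 without either unstimulated array, and those lower with HGF were 2 without HGF replicate 1 or unstimulated replicate 2. At 16 h the genes higher with HGF were 6 without HGF replicate 2 and 8 without unstimulated replicate 2. Counts of 0 were checked at an unadjusted p under 0.05 from limma: 2 genes were then higher with IL-6 at 8 h and 1 at 16 h, 0 were lower with IL-6 plus HGF at 24 h, and 2 were lower with HGF at 32 h.

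**Figure D3:**
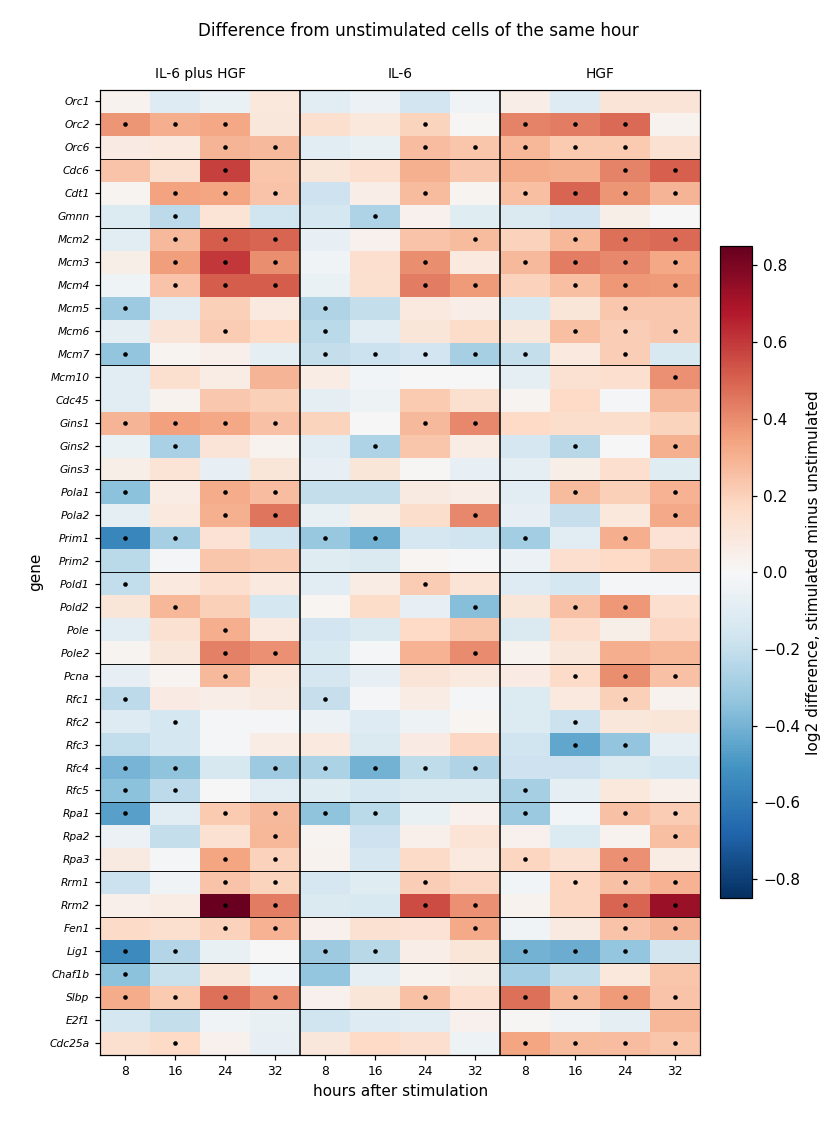
Log2 difference from unstimulated cells of the same hour for each gene (rows, boxed by role) at 8, 16, 24 and 32 h (columns) with IL-6 plus HGF, IL-6 and HGF. Red is higher and blue lower than unstimulated cells, and dots mark an adjusted p under 0.05 within the hour. Blue cells gather at 8 h in Prim1, Rpa1, Lig1 and Rfc4, and red ones at 24 h in Mcm2, Mcm3, Mcm4 and Rrm2.

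Of the origin recognition complex, which marks replication origins, Orc2 and Orc6 were higher with each stimulus and Orc1 did not pass. At 8 h Orc2 read 7.72 and 7.72 with IL-6 plus HGF, 7.46 and 7.51 with IL-6, 7.76 and 7.78 with HGF, and 7.34 and 7.36 in unstimulated cells. All stimulated arrays lay above both unstimulated ones, and those with HGF present lay above those with IL-6 alone. The difference reached 0.38 with IL-6 plus HGF at 8 h (SE 0.06, adjusted p = 1.09e-09), 0.19 with IL-6 at 24 h (SE 0.06, adjusted p = 0.0166) and 0.48 with HGF at 24 h (SE 0.06, adjusted p = 5.93e-13), each from limma's F-test. The IL-6 call ends without IL-6 24 h replicate 1 (adjusted p = 0.0753) or unstimulated 24 h replicate 2 (0.0637). At 32 h the arms had come together, with Orc2 at 7.72 and 7.67 with IL-6 plus HGF, 7.66 and 7.56 with IL-6, 7.62 and 7.64 with HGF and 7.58 and 7.62 unstimulated. Orc6 was higher by 0.29 with IL-6 plus HGF at 24 h, by 0.26 with IL-6 at 24 h and by 0.28 with HGF at 8 h (SE 0.07 each). The IL-6 value was 0.33 without the doubted array. Orc1 has a second probe set above the filter, which read 0.64 higher with IL-6 plus HGF and 0.44 higher with HGF at 24 h, against -0.06 and 0.11 for the one used.

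Cdt1, which brings the helicase to origins, had its largest difference at 16 h with HGF. It read 10.18 and 10.28 with IL-6 plus HGF, 9.92 and 9.97 with IL-6, 10.40 and 10.37 with HGF, and 9.95 and 9.83 in unstimulated cells at that hour. The difference from unstimulated cells was 0.34 with IL-6 plus HGF (SE 0.07, limma adjusted p = 1.48e-06) and 0.50 with HGF (SE 0.07, adjusted p = 8.98e-10), whereas the IL-6 arrays overlapped the unstimulated ones. IL-6 passed at 24 h with 0.27 (SE 0.07, adjusted p = 0.00779), a call that ends without IL-6 24 h replicate 1 (0.16, adjusted p = 0.108) and with the mean over its probe sets (0.12, adjusted p = 0.329).

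Cdc6, the other loader, is the noisiest gene of the list (SD between replicate arrays 0.17, against a median of 0.09 over the list). At 24 h it read 6.05 and 6.25 with IL-6 plus HGF, 5.87 and 5.88 with IL-6, 5.85 and 6.13 with HGF, and 5.60 and 5.54 unstimulated. It was higher by 0.58 with IL-6 plus HGF at 24 h (SE 0.16, limma adjusted p = 0.00765, but 0.0698 without replicate 2 of that group). With HGF it was higher by 0.51 at 32 h (SE 0.16, adjusted p = 0.00133 over all hours), and by 0.09 at that hour without replicate 1, since the 2 arrays read 6.05 and 5.21. IL-6 did not pass (0.31 at 24 h, SE 0.16, adjusted p = 0.267). Gmnn, the geminin that blocks Cdt1, was lower at 16 h by 0.23 with IL-6 plus HGF (SE 0.08) and 0.26 with IL-6 (SE 0.08), and did not pass with HGF.

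The 6 subunits of the MCM2-7 ring did not move as one. With HGF all 6 were called higher. With IL-6 plus HGF 4 were higher and 2, Mcm5 and Mcm7, lower. With IL-6 Mcm2, Mcm3 and Mcm4 were higher and Mcm5, Mcm6 and Mcm7 lower. Each direction is that of the hour with the largest difference, and other hours could differ in sign. With IL-6 plus HGF Mcm5 was 0.20 higher at 24 h. Mcm7 with HGF read below unstimulated cells at 8 h, and its value at 24 h was 0.14 without HGF 24 h replicate 1. At 24 h Mcm3 read 7.99 and 8.06 with IL-6 plus HGF, 7.84 and 7.80 with IL-6, 7.85 and 7.82 with HGF, and 7.41 and 7.44 in unstimulated cells. All 6 stimulated arrays lay above both unstimulated ones. Against unstimulated cells the difference at 24 h was 0.60 with IL-6 plus HGF (SE 0.09, limma adjusted p = 2.56e-08) and 0.40 with IL-6 (SE 0.09, adjusted p = 0.00433), and with HGF it was largest at 16 h, 0.44 (SE 0.09, adjusted p = 2.48e-07). The IL-6 value was 0.38 without the doubted array (adjusted p = 0.0391).

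Mcm4 at 24 h read 9.36 and 9.47 with IL-6 plus HGF, 9.27 and 9.40 with IL-6, 9.29 and 9.25 with HGF, and 8.87 and 8.94 unstimulated, again without overlap. Its largest difference was 0.52 at 32 h with IL-6 plus HGF (SE 0.09, limma adjusted p = 7.91e-09), 0.43 at 24 h with IL-6 (SE 0.09, adjusted p = 8.93e-06) and 0.37 at 24 h with HGF (SE 0.09, adjusted p = 2.66e-06). The IL-6 value was 0.50 without the doubted array. A second Mcm4 probe set above the filter read 1.07 higher with IL-6 plus HGF and 0.64 higher with HGF at 24 h. The one used read 0.51 and 0.37 higher at that hour. Mcm2 stood 0.51 higher at 24 h with IL-6 plus HGF (SE 0.10), 0.27 at 32 h with IL-6 (SE 0.10) and 0.48 at 32 h with HGF (SE 0.10). The HGF value was 0.32 without the doubted array, and the IL-6 call rests on IL-6 24 h replicate 1, as given above.

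Mcm5 and Mcm7 lay below unstimulated cells at 8 h, the first hour compared. At 8 h Mcm5 read 9.41 and 9.46 with IL-6 plus HGF, 9.52 and 9.46 with IL-6, 9.59 and 9.63 with HGF, and 9.75 and 9.73 unstimulated. The difference at that hour was -0.31 with IL-6 plus HGF (SE 0.09, limma adjusted p = 0.00539) and -0.26 with IL-6 (SE 0.09, adjusted p = 0.0246). By 24 h its readings were 9.38 and 9.47 with IL-6 plus HGF, 9.35 and 9.27 with IL-6, 9.48 and 9.43 with HGF, and 9.31 and 9.14 unstimulated, and HGF was called higher there by 0.23 (SE 0.09, adjusted p = 0.0121). The Mcm5 calls are weak: that of HGF ends without unstimulated 24 h replicate 2 (0.0506), that of IL-6 without any 1 of 4 arrays (0.0558 to 0.0903), and that of IL-6 plus HGF with the mean over its probe sets (0.0979).

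Mcm7 at 8 h read 10.36 and 10.29 with IL-6 plus HGF, 10.49 and 10.44 with IL-6, 10.43 and 10.49 with HGF, and 10.63 and 10.71 in unstimulated cells, all stimulated arrays being lower. It was lower by 0.34 at 8 h with IL-6 plus HGF (SE 0.06, limma adjusted p = 3.58e-05). With IL-6 its difference was negative at all 4 hours and largest at 32 h, where the arrays read 11.22 and 11.34 against 11.56 and 11.57 in unstimulated cells (-0.28, SE 0.06, adjusted p = 1.28e-06). With HGF it was higher at 24 h, at 11.31 and 11.18 against 11.05 and 11.04 (0.21, SE 0.06, adjusted p = 1.22e-04).

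**Figure D4:**
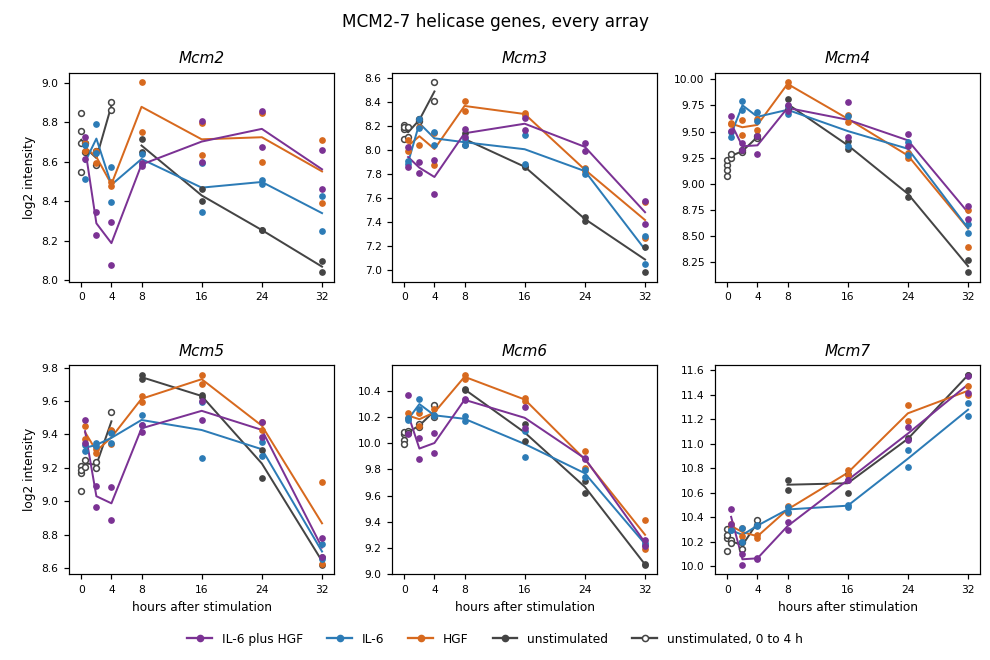
Log2 intensity (vertical axis, own range per panel) of the 6 MCM2-7 genes on every array against hours after stimulation. Points are arrays, lines join group means, and open points mark unstimulated arrays of 0 to 4 h. Mcm7 rises in all 4 arms from 8 h on, reaching 11.22 to 11.57 at 32 h, while Mcm4 declines to between 8.15 and 8.79.

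Among the helicase activators Gins1, a GINS subunit, was the one higher with all stimuli. At 16 h it read 8.43 and 8.51 with IL-6 plus HGF, 8.14 and 8.11 with IL-6, 8.31 and 8.23 with HGF, and 8.13 and 8.11 unstimulated. Its difference was 0.35 with IL-6 plus HGF at 16 h (SE 0.09, limma adjusted p = 2.09e-06), 0.41 with IL-6 at 32 h (SE 0.09, adjusted p = 5.69e-05) and 0.19 with HGF at 32 h (SE 0.09, adjusted p = 0.0236). The HGF difference at 32 h was 0.05 without HGF replicate 1 (adjusted p = 0.0673), and the call also ended without unstimulated replicate 1 of 8 h (0.0547) or of 32 h (0.0721). With HGF Gins2 and Mcm10 also passed, at 0.30 (SE 0.10) and 0.39 (SE 0.12) at 32 h. Without the doubted array both read 0.21 and were not called (adjusted p = 0.0544 for Gins2 and 0.345 for Mcm10). Gins2 was called lower with IL-6 at 16 h by 0.26 (SE 0.10), and not without IL-6 24 h replicate 1. Its arrays of 16 h with HGF and with IL-6 plus HGF also read below both unstimulated ones. Cdc45, which joins the ring to GINS, and Gins3 did not pass with any stimulus.

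DNA polymerase alpha and its primase showed both directions. Prim1, the catalytic primase subunit, read 7.93 and 7.80 at 8 h with IL-6 plus HGF, 8.09 and 8.12 with IL-6, 8.09 and 8.16 with HGF, and 8.39 and 8.46 in unstimulated cells. The difference there was -0.55 with IL-6 plus HGF (SE 0.08, limma adjusted p = 6.73e-08). At 24 h the readings were 8.17 and 8.31 with IL-6 plus HGF, 8.00 and 7.94 with IL-6, 8.49 and 8.35 with HGF, and 8.15 and 8.07 unstimulated. IL-6 lay lower, most at 16 h (-0.40, SE 0.08, adjusted p = 4.71e-06), and HGF was higher at 24 h (0.31, SE 0.08, adjusted p = 1.39e-04). Pola2, the accessory subunit of polymerase alpha, was higher at 32 h by 0.45 with IL-6 plus HGF, 0.41 with IL-6 and 0.32 with HGF (SE 0.11 each), the last being 0.29 and not called without the doubted array (adjusted p = 0.124). Pola1, the catalytic subunit, had its largest difference with IL-6 plus HGF at 8 h, lower by 0.35 (SE 0.09). At 24 h Pola1 read 0.32 higher with IL-6 plus HGF, and at 32 h both arrays lay above both unstimulated ones. With HGF Pola1 was higher at 32 h by 0.30 (SE 0.09). Without the doubted array the HGF value of Pola1 was 0.13 at 32 h, and the gene stayed called with its largest difference, 0.27, at 16 h. Prim2 passed with IL-6 plus HGF (0.24 at 24 h, SE 0.11, adjusted p = 0.0381).

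Of the polymerases that extend the strands, Pole2 was higher by 0.43 with IL-6 plus HGF at 24 h (SE 0.13) and by 0.40 with IL-6 at 32 h (SE 0.13), a call that ended without IL-6 24 h replicate 1. Pold2, a subunit of polymerase delta, was higher by 0.29 with IL-6 plus HGF at 16 h (SE 0.09) and 0.37 with HGF at 24 h (SE 0.09), but lower by 0.36 with IL-6 at 32 h (SE 0.09). Pold1, the catalytic subunit of delta, was lower by 0.21 with IL-6 plus HGF at 8 h (SE 0.07) and higher by 0.21 with IL-6 at 24 h (SE 0.07). Without the doubted array the IL-6 value of Pold1 was 0.17 and not called (adjusted p = 0.187). Pole, the catalytic subunit of epsilon, did not pass with any of the 3.

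Pcna was higher than in unstimulated cells with HGF present. At 24 h it read 11.42 and 11.47 with IL-6 plus HGF, 11.26 and 11.30 with IL-6, 11.61 and 11.51 with HGF, and 11.20 and 11.14 unstimulated. The difference was 0.27 with IL-6 plus HGF (SE 0.06, limma adjusted p = 0.00133) and 0.39 with HGF (SE 0.06, adjusted p = 1.01e-07). With IL-6 it did not pass (largest difference -0.14 at 8 h, SE 0.06, adjusted p = 0.0626). Under quantile normalization the IL-6 difference was called lower, at -0.15 (limma adjusted p = 0.0484).

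The clamp loader, replication factor C, was mostly lower where it passed. Rfc4 at 8 h read 7.21 and 7.39 with IL-6 plus HGF, 7.48 and 7.38 with IL-6, 7.53 and 7.52 with HGF, and 7.72 and 7.68 unstimulated. It was lower by 0.40 with IL-6 plus HGF at 8 h (SE 0.08, limma adjusted p = 9.59e-08), by 0.40 with IL-6 at 16 h (SE 0.08, adjusted p = 7.3e-07) and by 0.18 with HGF at 16 h (SE 0.08, adjusted p = 0.0118). Rfc3 was lower with HGF at 16 h, where it read 6.89 and 6.84 against 7.22 and 7.39 in unstimulated cells (-0.44, SE 0.09, adjusted p = 2.55e-05). At that hour its arrays read 7.08 and 7.22 with IL-6 plus HGF and 7.14 and 7.22 with IL-6 and did not pass. Rfc5 was lower at 8 h by 0.35 with IL-6 plus HGF (SE 0.09) and 0.28 with HGF (SE 0.09). Rfc2 at 16 h read 8.34 and 8.33 with IL-6 plus HGF, 8.39 and 8.36 with IL-6, 8.28 and 8.33 with HGF and 8.55 and 8.42 unstimulated, and was called lower with HGF (-0.18, SE 0.06, adjusted p = 0.00881). That call ends without unstimulated 16 h replicate 1 (0.0528) and with the mean over the probe sets (0.27). Rfc1 was lower at 8 h with IL-6 plus HGF by 0.22 (SE 0.06) and higher at 24 h with HGF by 0.20 (SE 0.06).

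Rpa1, the largest subunit of the single-strand binding protein, crossed the unstimulated level during the culture. At 8 h it read 10.51 and 10.45 with IL-6 plus HGF, 10.61 and 10.59 with IL-6, 10.64 and 10.61 with HGF, and 10.91 and 10.97 in unstimulated cells. At 32 h the readings were 10.67 and 10.74 with IL-6 plus HGF, 10.49 and 10.46 with IL-6, 10.69 and 10.62 with HGF, and 10.42 and 10.45 unstimulated. All stimulated arrays lay below the unstimulated ones at 8 h. At 32 h those with HGF present lay above them, while IL-6 alone differed by 0.04 (SE 0.06). The difference at 8 h was -0.46 with IL-6 plus HGF (SE 0.06, limma adjusted p = 1.57e-10), -0.34 with IL-6 (SE 0.06, adjusted p = 2e-06) and -0.32 with HGF (SE 0.06, adjusted p = 1.43e-07). Rpa2, the middle subunit, was higher with IL-6 plus HGF by 0.28 at 32 h (SE 0.10), and Rpa3, the smallest, was higher at 24 h by 0.34 with IL-6 plus HGF (SE 0.07) and 0.39 with HGF (SE 0.07).

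Ribonucleotide reductase makes deoxynucleotides. Among the probe sets used for the list, that of its subunit Rrm2 gave the largest difference from unstimulated cells. At 24 h Rrm2 read 10.66 and 10.70 with IL-6 plus HGF, 10.39 and 10.40 with IL-6, 10.35 and 10.32 with HGF, and 9.92 and 9.76 in unstimulated cells. The groups did not overlap, and the combination lay above either stimulus. The difference was 0.84 with IL-6 plus HGF (SE 0.12, limma adjusted p = 1.82e-07) and 0.55 with IL-6 (SE 0.12, adjusted p = 1.57e-04). With HGF it was largest at 32 h, 0.73 (SE 0.12, adjusted p = 7.31e-07), where the arrays read 10.25 and 9.48 against 9.18 and 9.08 unstimulated; without replicate 1 it was 0.35 at that hour. The IL-6 value at 24 h was 0.56 without the doubted array. Rrm1, the large subunit, was higher by 0.24 with IL-6 plus HGF at 24 h, by 0.21 with IL-6 at 24 h and by 0.30 with HGF at 32 h (SE 0.07 each). Without the doubted arrays Rrm1 read 0.24 higher with IL-6 at 24 h and 0.12 with HGF at 32 h, and stayed called with both stimuli, with HGF through 0.25 at 24 h.

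The Okazaki fragment enzymes parted. Fen1, the flap nuclease, was higher at 32 h by 0.29 with IL-6 plus HGF, 0.32 with IL-6 and 0.29 with HGF (SE 0.07 each), the HGF value being 0.27 without the doubted array. Lig1 at 8 h read 8.29 and 8.24 with IL-6 plus HGF, 8.53 and 8.47 with IL-6, 8.38 and 8.42 with HGF, and 8.78 and 8.84 in unstimulated cells. All stimulated arrays were lower, by 0.54 with IL-6 plus HGF at 8 h (SE 0.08, limma adjusted p = 1.91e-07), 0.31 with IL-6 at 8 h (SE 0.08, adjusted p = 6.32e-04) and 0.42 with HGF at 16 h (SE 0.08, adjusted p = 6.85e-09).

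**Figure D5:**
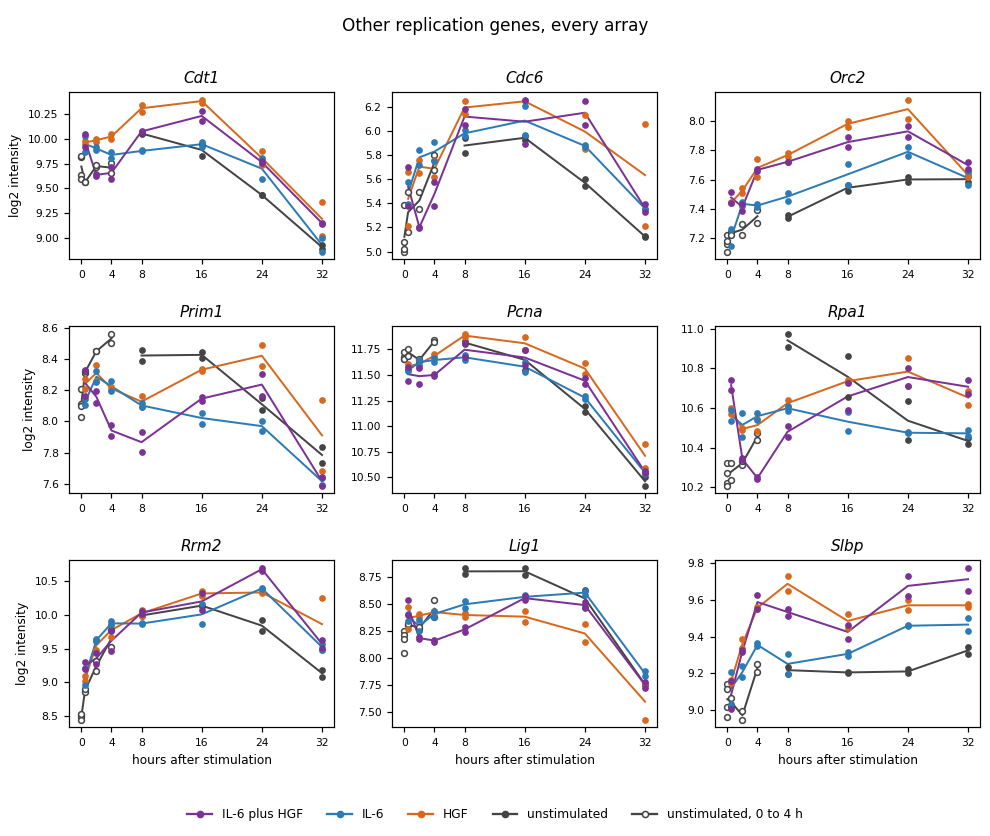
Log2 intensity (vertical axis, own range per panel) of 9 further genes on every array against hours after stimulation. Points are arrays, lines join group means, and open points mark unstimulated arrays of 0 to 4 h. At 8 h the stimulated arrays of Rpa1 and Prim1 lie below the unstimulated ones, and Rrm2 peaks at 10.66 and 10.70 with IL-6 plus HGF at 24 h.

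Slbp, which binds the stem loop of histone mRNA, was higher with every stimulus. At 24 h it read 9.62 and 9.73 with IL-6 plus HGF, 9.46 and 9.46 with IL-6, 9.60 and 9.54 with HGF, and 9.22 and 9.20 unstimulated. The difference was 0.47 with IL-6 plus HGF at 24 h (SE 0.06, limma adjusted p = 3.39e-13), 0.25 with IL-6 at 24 h (SE 0.06, adjusted p = 6.2e-04) and 0.47 with HGF at 8 h (SE 0.06, adjusted p = 1.11e-12). The IL-6 value was also 0.25 without the doubted array. Chaf1b, a subunit of chromatin assembly factor 1, did not pass over 8 to 32 h with any stimulus.

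E2f1, a transcription factor of S phase genes, showed no call against unstimulated cells. At 24 h it read 6.04 and 6.01 with IL-6 plus HGF, 5.97 and 5.95 with IL-6, 5.95 and 6.01 with HGF, and 6.14 and 5.98 in unstimulated cells. The adjusted p was 0.346, 0.547 and 0.236 for IL-6 plus HGF, IL-6 and HGF from limma's F-test. Cdc25a, the phosphatase that activates Cdk2, was higher with HGF, most at 8 h (0.33, SE 0.07, limma adjusted p = 1.49e-07), and passed narrowly with IL-6 (0.17 at 16 h, SE 0.07, adjusted p = 0.0494), which it did not without IL-6 24 h replicate 1.

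Set directly against each other, the stimuli differed mostly in favour of HGF. With IL-6, 23 genes were lower and 3 higher than with HGF over 8 to 32 h, on a background of 50.1% (22.4% higher and 27.7% lower). Pold2 was lower by 0.51 at 32 h (SE 0.09), Pola1 by 0.48 at 16 h (SE 0.09), Prim1 by 0.45 at 24 h (SE 0.08) and Cdt1 by 0.44 at 16 h (SE 0.07). Higher were Rfc3 by 0.41 (SE 0.09), Lig1 by 0.38 (SE 0.08) and Pold1 by 0.23 (SE 0.07), all at 24 h. Without HGF 32 h replicate 1 the counts were 21 lower and 5 higher, and Pold2 differed by -0.49 at 32 h. Without IL-6 24 h replicate 1 the differences at 24 h were -0.48 for Prim1, 0.43 for Rfc3, 0.36 for Lig1 and 0.18 for Pold1.

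IL-6 plus HGF against HGF alone gave 13 genes lower and 4 higher (background 37.0%, 17.6% higher and 19.3% lower), a share near the background. Cdc25a was lower by 0.31 at 32 h (SE 0.07), Prim1 by 0.29 at 32 h (SE 0.08) and Cdt1 by 0.24 at 8 h (SE 0.07). Rrm2 was higher by 0.35 at 24 h (SE 0.12, limma adjusted p = 0.0271), and so were Rfc3 by 0.32 (SE 0.09) and Lig1 by 0.26 (SE 0.08) at 24 h and Pold1 by 0.23 (SE 0.07) at 16 h. E2f1 was lower by 0.35 at 32 h (SE 0.11, adjusted p = 0.0394), where its arrays read 6.17 and 5.91 with IL-6 plus HGF and 6.55 and 6.23 with HGF. Without HGF 32 h replicate 1 the difference at 32 h was -0.19 for E2f1, which was not called (adjusted p = 0.28), -0.07 for Prim1, which stayed called with -0.26 at 8 h, and -0.28 for Cdc25a. Without HGF 8 h replicate 2 the total was 10 of 42, and without HGF 32 h replicate 1 7 genes were higher. IL-6 plus HGF against IL-6 gave 13 higher and 1 lower (background 34.6%, 18.2% higher and 16.4% lower). Gins1 was higher by 0.34 at 16 h (SE 0.09), Mcm3 by 0.31 at 32 h (SE 0.09), Cdt1 by 0.29 at 16 h (SE 0.07) and Rpa1 by 0.28 at 24 h (SE 0.06), and Lig1 was lower by 0.23 at 8 h (SE 0.08). Without IL-6 24 h replicate 1 Lig1 was not called (adjusted p = 0.0694), and Rpa1 differed by 0.28 as before.

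A departure of the combination from the sum of the single differences was tested as IL-6 plus HGF minus HGF minus IL-6 plus unstimulated. It passed for 7 of 42 genes, 2 positive and 5 negative, on a background of 19.7% (11.4% positive, 8.28% negative), a share near the background. Lig1 (0.41 at 16 h, SE 0.11) and Mcm7 (0.33 at 32 h, SE 0.08) were the positive ones, and Rrm2, Cdc25a, Orc2, Fen1 and Pcna the negative ones, from -0.69 to -0.24. Without HGF 32 h replicate 1 the count was 4, with 1 positive and 3 negative, and Rrm2 (adjusted p = 0.239), Pcna (0.127), Fen1 (0.0967) and Mcm7 (0.0623) were no longer called. Without IL-6 24 h replicate 1 Pcna (0.0541) and Fen1 (0.0651) were not called. The count was 14 without HGF 32 h replicate 2, 4 without IL-6 32 h replicate 2 and 3 without replicate 2 of IL-6 plus HGF at 32 h.

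The change from 8 to 32 h itself differed from that in unstimulated cells for 14 genes with IL-6 plus HGF, 13 of them positive, on a background of 16.9% (9.08% positive, 7.81% negative). Rpa1 led with 0.73 (SE 0.08, limma adjusted p = 9.98e-10), followed by Pola1 with 0.60 (SE 0.13), Mcm2 with 0.59 (SE 0.14), Mcm4 with 0.55 (SE 0.12) and Lig1 with 0.54 (SE 0.11). Orc2 was the negative one (-0.28, SE 0.09). Without unstimulated 8 h replicate 2 the count was 9. With IL-6 9 genes passed, 8 positive (background 10.1%, 5.04% positive and 5.07% negative), among them Rrm2 with 0.51 (SE 0.17), Mcm4 with 0.42 (SE 0.12), Lig1 with 0.41 (SE 0.11) and Rpa1 with 0.38 (SE 0.08). The Rrm2 call with IL-6 ended with a replicate block (adjusted p = 0.0536), with the mean over probe sets (0.0538), without a variance trend (0.0885), with robust variances (0.0944) and without any 1 of the 8 arrays in it (0.0589 to 0.159). That of Mcm4 ended with the mean over probe sets, at 0.13 (0.683). With HGF 11 passed, 9 positive (background 15.6%, 6.50% positive and 9.14% negative). Of these, Orc2, negative, and Rpa1, positive, were the 2 that passed without HGF 32 h replicate 1. The HGF count was 19 without HGF 32 h replicate 2, and 5 to 7 without any 1 array of HGF at 8 h or of unstimulated cells at 8 or 32 h. The IL-6 count was 2 to 4 without any 1 array of IL-6 at 8 h, of unstimulated cells at 8 or 32 h, or without IL-6 32 h replicate 2.

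Lists of related genes were tested in the same fit. Of 29 other replication factors, 14 were higher and 5 lower with IL-6 plus HGF (all genes 28.5% and 28.7%), 8 and 6 with IL-6 (18.7% and 23.3%), and 12 and 4 with HGF (27.2% and 27.9%). The same shares of all genes are the background of the lists that follow. Rnaseh2a, a subunit of the nuclease that removes RNA primers, was higher by 0.48 at 24 h (SE 0.05), Wdhd1, which tethers polymerase alpha to the helicase, by 0.60 (SE 0.11) and Dbf4, the activator of the Cdc7 kinase, by 0.42 (SE 0.08), all with IL-6 plus HGF at 24 h. Top2a did not pass (0.18 at 24 h, SE 0.14, limma adjusted p = 0.754).

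Nucleotide synthesis gave 10 higher and 3 lower of 15 with IL-6 plus HGF, 5 and 5 with IL-6, and 11 and 4 with HGF. Cad, the enzyme that begins pyrimidine synthesis, was higher by 0.75 at 16 h (SE 0.08) and Ppat, which begins purine synthesis, by 0.52 (SE 0.05) with IL-6 plus HGF. Tk1, the S phase thymidine kinase, was lower by 1.31 at 16 h (SE 0.12, limma adjusted p = 5.63e-16). Of 11 genes of replication-coupled chromatin, 8 were higher and 3 lower with IL-6 plus HGF, among them Nasp, a histone chaperone, higher by 0.38 at 32 h (SE 0.06), and Asf1a, another, lower by 0.49 at 8 h (SE 0.05).

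Of 13 G1 and S cyclins and kinases, 8 were higher and 3 lower with IL-6 plus HGF, 3 and 4 with IL-6, and 9 and 2 with HGF. With IL-6 plus HGF Ccne1, the cyclin of S phase entry, was higher by 0.54 at 32 h (SE 0.08, limma adjusted p = 2.46e-11). Ccnd1, the G1 cyclin, was higher by 0.37 at 8 h (SE 0.11) and lower by 0.31 at 32 h (SE 0.11, adjusted p = 0.0252 within the hour), with -0.22 at 24 h (0.128). Ccna2, the S and G2 cyclin, was lower by 0.47 at 16 h (SE 0.15, adjusted p = 0.0155). In the E2F and RB family 6 of 16 were higher and 4 lower with IL-6 plus HGF, a share near the 57.2% of all genes called. It had E2f3 higher by 0.55 at 16 h (SE 0.08) and the repressor E2f6 lower by 0.56 at 8 h (SE 0.06). Of 6 inhibitors of cyclin-dependent kinases 1, Cdkn1a, was higher by 0.20 at 16 h (SE 0.05), and 3 were lower, Cdkn2b most, by 0.86 at 32 h (SE 0.11).

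Of 28 genes of G2 and mitosis, 2 were higher and 13 lower with IL-6 plus HGF, 8 and 7 with IL-6, and 6 and 10 with HGF. Ccnb2, a mitotic cyclin, was lower by 0.88 at 16 h (SE 0.17), Ttk, a spindle checkpoint kinase, by 0.74 at 16 h (SE 0.17) and the proliferation marker Mki67 by 0.49 at 8 h (SE 0.16, limma adjusted p = 0.0189). Among 15 genes of the replication checkpoint and repair, 3 were higher and 3 lower with IL-6 plus HGF, against 57.2% of all genes called in either direction, and Ung, which removes uracil from DNA, was higher by 0.76 at 24 h (SE 0.09).

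Marker lists of the cell types that a hepatocyte preparation can hold were measured on the same arrays. With IL-6 plus HGF 6 of 7 hepatocyte markers were lower and 1 higher than in unstimulated cells, with Cps1, the first enzyme of the urea cycle, at -1.58 at 24 h (SE 0.10) and Apoa1, an apolipoprotein, at -1.79 at 32 h (SE 0.10). Of 8 Kupffer cell and macrophage markers 3 were called, all lower: Cd68 by 0.70 at 24 h (SE 0.12), Vsig4 by 0.88 at 16 h (SE 0.27) and Lyz2 by 0.59 at 16 h (SE 0.15). Of 8 endothelial markers 2 were called, both lower, Lyve1 by 0.82 (SE 0.16) and Cdh5 by 0.63 (SE 0.11), both at 32 h. Of 7 stellate cell and fibroblast markers 2 were higher, Dcn by 1.22 at 32 h (SE 0.14) and Reln by 0.56 at 16 h (SE 0.16), and Acta2 was lower by 0.24 at 8 h (SE 0.11). Over 8 to 32 h the mean level over the Kupffer cell and macrophage markers ran from 5.64 to 5.91 with IL-6 plus HGF, 5.77 to 6.11 with IL-6, 5.58 to 6.00 with HGF and 5.61 to 6.04 in unstimulated cells. Endothelial markers ran from 5.07 to 5.44 with IL-6 plus HGF, 5.26 to 5.59 with IL-6, 4.99 to 5.38 with HGF and 5.23 to 5.47 in unstimulated cells. Stellate cell and fibroblast markers ran from 5.00 to 5.21 with IL-6 plus HGF, 5.14 to 5.40 with IL-6, 4.89 to 5.13 with HGF and 5.02 to 5.18 in unstimulated cells. Of the cholangiocyte markers tested 2 of 4 were higher and 1 lower with IL-6 plus HGF, with Sox9 higher by 1.01 at 24 h (SE 0.10). Leukocyte markers stayed at 3.87 to 4.16 in all arms, and 4 of 7, Ptprc, Nkg7, S100a8 and S100a9, did not pass the filter. The part of other cell types in the results was not tested.

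Other probe sets of the same genes were used as a check of single probe sets. Of 42 further probe sets above the filter in 30 genes, 38 had the same sign as the one used for the unstimulated change from 8 to 32 h. For the difference from unstimulated cells at 24 h, 31 did with IL-6 plus HGF and 35 with HGF.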

How the data were processed

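Affymetrix Mouse430_2 arrays were hybridised with biotin-labelled RNA, per the labels' protocols. For 45101 probe sets on each of 60 arrays, log2 intensities were deposited. Its summarisation and scaling by the authors are not stated in those labels, and the values were taken as deposited. Gene names came from the platform annotation, in which 34958 probe sets carry 1 symbol; 932 with several symbols and 9211 without an entry were left out. A gene was its probe set with the highest mean, tested when above the 40th percentile of its array (4.28 to 4.40) on at least 2 arrays.

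The linear model held a mean for each arm and hour (limma 3.58.1, R 4.3.3, empirical Bayes variances with an intensity trend, 31 residual degrees of freedom). Comparisons were moderated F-tests over 8, 16, 24 and 32 h, adjusted by Benjamini-Hochberg over 14513 genes, with a threshold of 0.05; single hours were adjusted within the hour. The fit was tested on simulated data. Differences are given on the log2 scale, and SE is their standard error in the model.

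The genes and lists were chosen with earlier results of these data known. Values on every array are given for the 4 genes of smallest adjusted p in each direction against unstimulated cells, and for Mcm5, Pcna, Cdc6, Cdt1, Rrm2 and E2f1; of other lists up to 4 genes with the smallest adjusted p for IL-6 plus HGF, and Ccnd1, Ccne1, Ccna2, Cdkn1a, Mki67 and Top2a. Alternatives were quantile normalization, other filters, the mean over probe sets, the compared arms alone, a replicate block, other variance models, other hours, and leaving out each array; for all genes of the list, HGF 32 h replicate 1 and IL-6 24 h replicate 1, added after seeing the data.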

Additional observations from a re-analysis of the deposited data

Results flagged for a closer look

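Some named genes departed from the sum of the single stimuli, by limma's F-test of the interaction with an adjusted p under 0.05. The interaction was -0.34 for Orc2 at 24 h, 0.33 for Mcm7 at 32 h, -0.24 for Pcna at 32 h, -0.69 for Rrm2 at 32 h and 0.41 for Lig1 at 16 h. Without HGF 32 h replicate 1 that of Rrm2 was -0.30 (adjusted p = 0.239) and that of Pcna -0.12 (0.127). The Pcna call also ended with the mean over probe sets (0.0602), a replicate block (0.0523), no variance trend (0.102) and without 24 h (0.167), and that of Rrm2 with the mean over probe sets (0.0539), no variance trend (0.0648) and robust variances (0.0724).

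For others the change from 8 to 32 h differed from that in unstimulated cells, by limma's moderated test of the difference. With IL-6 plus HGF it was -0.28 for Orc2, 0.55 for Mcm4, 0.39 for Mcm5, 0.26 for Mcm7, 0.39 for Prim1, 0.73 for Rpa1 and 0.54 for Lig1. Of these, the calls of Mcm5 (adjusted p = 0.141), Mcm7 (0.144) and Prim1 (0.0818) ended with the mean over probe sets, and those of Orc2, Mcm5, Mcm7 and Prim1 without any 1 of 3 to 5 arrays each. With IL-6 it was 0.42 for Mcm4, 0.38 for Rpa1, 0.51 for Rrm2 and 0.41 for Lig1. The Rrm2 call ended with the replicate block (0.0536), with the mean over probe sets (0.0538), without a variance trend (0.0885), with robust variances (0.0944) and without any 1 of 8 arrays, and that of Mcm4 was 0.13 (0.683) with the mean over probe sets. That of Lig1 ended without IL-6 8 h replicate 2 (0.0502). With HGF it was -0.39 for Orc2, 0.36 for Mcm5, 0.42 for Prim1, 0.54 for Rpa1, 0.70 for Rrm2 and -0.22 for Slbp. Without HGF 32 h replicate 1 these HGF values were 0.11 for Mcm5 (adjusted p = 0.602), 0.19 for Prim1 (0.225) and 0.31 for Rrm2 (0.134), and the call of Slbp (adjusted p = 0.0486) ended at 0.109, as it did without any 1 of 18 other arrays. The HGF call of Mcm5 also ended with the mean over probe sets (0.0774), no variance trend (0.0725) and robust variances (0.0513). By a Dixon ratio, the 4 unstimulated arrays of 0 h held no outlying value in the 18 named genes. With 4 values this rule finds only a value far apart from the others.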

How the results depend on the processing

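No named gene changed sign at the hour of its largest difference in the main fit. Whether another hour became the largest was not followed in this count. Of 3129 values for 76 gene results, 2997 kept their side of the threshold, 118 lost a call and 14 gained one. Most of these values come from leaving out single arrays, including arrays outside the comparison. Of the 697 values from the other settings, 660 kept their side. Against the counts in the report, the interaction called 12 genes under quantile normalization (2 higher, 10 lower), 3 with the mean over probe sets, 4 without a variance trend and 4 without 24 h. With the mean over probe sets the change from 8 to 32 h with IL-6 plus HGF called 9, the genes lower at 8 h were 7 with IL-6 plus HGF and 5 with IL-6, and those higher at 32 h with IL-6 were 5. IL-6 plus HGF against HGF called 9 with the compared arms only and 26 over all 7 hours, and against IL-6 30 over all 7 hours. The list's mean changed by -0.60 from 8 to 32 h in unstimulated cells under quantile normalization and by -0.44 with the mean over probe sets, against -0.50. Under quantile normalization the HGF change from 8 to 32 h had 14 positive and 1 negative. Single-hour counts other than those higher at 24 h, and the single genes flagged above, were added after seeing the data.

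Leaving out each of 32 arrays in turn, IL-6 plus HGF against unstimulated called 28 to 33, IL-6 18 to 27 and HGF 28 to 36. IL-6 plus HGF against HGF called 10 to 22, against IL-6 11 to 17, IL-6 against HGF 22 to 32 and the interaction 3 to 14. Culture time called 29 to 33 with IL-6 plus HGF, 28 to 31 with IL-6, 30 to 34 with HGF and 33 to 36 unstimulated. Its difference from unstimulated called 9 to 16, 2 to 11 and 2 to 19. Genes higher at 24 h were 13 to 21 with IL-6 plus HGF, 6 to 11 with IL-6 and 14 to 22 with HGF; at 32 h they were 10 to 18, 3 to 9 and 4 to 26; genes lower at 8 h were 8 to 12, 3 to 9 and 2 to 5. The list's mean against unstimulated at 24 h was 0.18 to 0.25, 0.10 to 0.12 and 0.13 to 0.24.

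Departures of replicate 1 from its group mean correlated by -0.27 to 0.25 over 378 pairs of groups (median -0.0004). No pairing by replicate number shared by all groups showed. Pairing within some of them cannot be told, since the labels do not name the animals. With the replicate block IL-6 plus HGF against HGF called 16, HGF against unstimulated 32 and the interaction 6. The number of arrays, 2 per group, limits the precision.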
